A study of Mus musculus with 4 samples.

Results

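The distal part of mouse chromosome 8 between 120 and 130 Mb held 237 of the 4638 Zac1 peaks analysed here, on the mm9 build. Members were taken by position alone, as every deposited peak on chromosome 8 whose midpoint lay at or above 120 Mb and below 130 Mb. The study mapped Zac1 binding in Neuro-2A, a mouse neuroblastoma line whose strain the labels give as Swiss Albino. All cells had been transfected with the plasmid pRK5-Zac1 and were fixed 16 hours later. The ChIP group holds 2 libraries precipitated with an in-house anti-Zac1 antibody, and the input group holds 2 libraries of the same kind of chromatin without antibody. Both groups carry the plasmid, cells without it were not analysed here, and the peaks therefore describe a cell line with added Zac1.

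Zac1, also called Plagl1, is a zinc finger transcription factor of the PLAG family that binds GC-rich DNA. Its gene is imprinted, with expression from the paternal copy in most tissues, and the protein is known for halting the cell cycle and for acting on other imprinted genes. Some of this distal part of mouse chromosome 8 is known to correspond to band 16q24 of the human genome. In ChIP-seq, fragments bound by the factor give forward reads on one side of a site and reverse reads on the other. Input chromatin shows how many reads the same site gives without precipitation.

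The deposited table gives 1 ChIP count and 1 input count per peak. It does not separate the libraries of a group, so no spread between replicates was measurable and no test between conditions was possible. All intervals below are exact 95% intervals of the reads of a peak or of summed reads, and they cover counting error only. Peaks differed among themselves by more than that, so an interval that leaves out equality does not show how another experiment would come out. Over all 4638 peaks the depth was 388156 ChIP reads and 20321 input reads. Every fold is ChIP reads over input reads after the input was multiplied by 0.6961, the constant recovered from the deposited fold values.

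The peaks of the 120 to 130 Mb stretch were dense, close to each other and rich in input reads. They made up 47.4% of the 500 peaks of chromosome 8. They held 20993 ChIP and 1346 input reads, which were 5.41% of all ChIP reads and 6.62% of all input reads within peaks. The pooled fold over input was 22.4 (21.2 to 23.7) in the stretch, 26.6 (25.1 to 28.3) over the other 263 peaks of chromosome 8 and 27.8 (27.4 to 28.2) over the 4401 peaks outside the stretch. Relative to those 4401 peaks the fold was 0.806 times as large (0.761 to 0.854). The stretch is 1 of 22 stretches of 10 Mb in the genome that held at least 50 peaks, and its pooled fold was the lowest of these 22. The next lowest, at 10 to 20 Mb of chromosome 8 (23.2, 20.3 to 26.5) and at 80 to 90 Mb of chromosome 15 (23.6, 22.2 to 25.2), overlapped it within counting error. Further stretches overlapped it too, such as 90 to 100 Mb of chromosome 15 (24.3, 22.0 to 26.9). Without its peak with most input reads (57), the 120 to 130 Mb stretch had a fold of 23.2 (21.9 to 24.5). That is about the fold at 10 to 20 Mb of chromosome 8, so the lowest place rests on that peak. The density itself brought the 120 to 130 Mb stretch to attention and is given as a description.

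**Figure D1:**
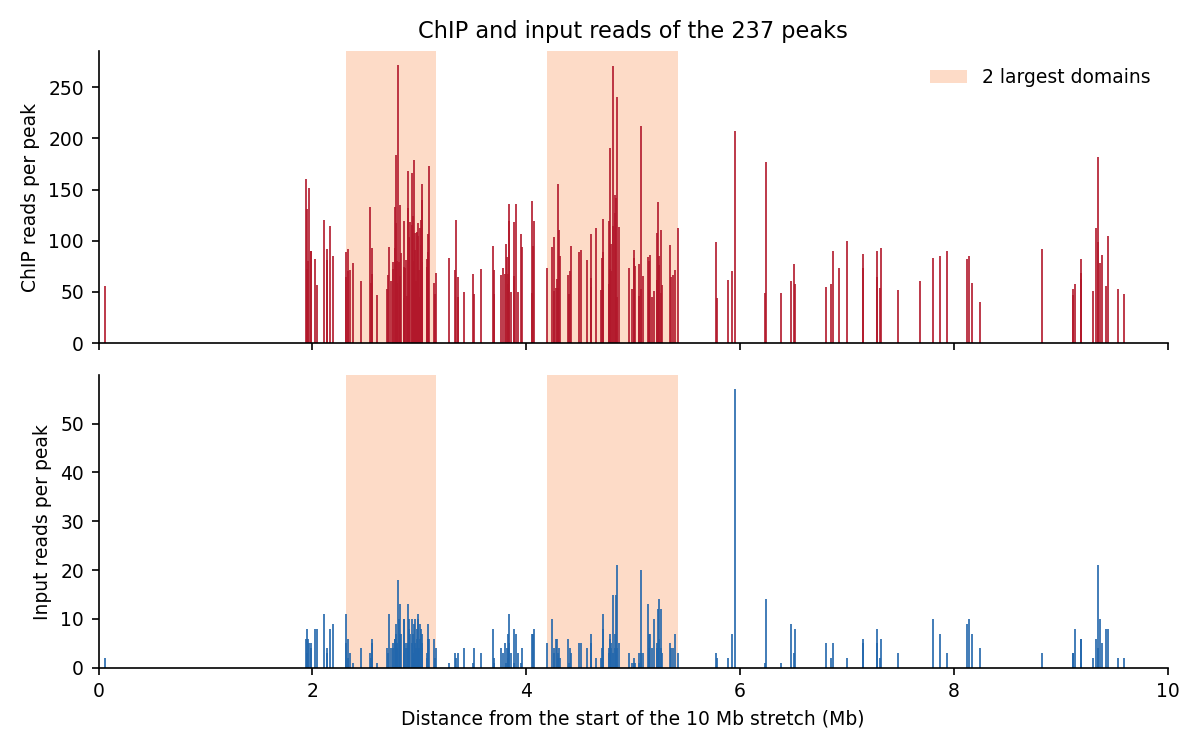
ChIP reads (upper panel) and input reads (lower panel) of each of the 237 peaks, against the distance in Mb from the 120 Mb position, with 1 line per peak and the 2 largest domains shaded. Peaks crowd into the shaded domains, and 1 peak near 6 Mb carries 57 input reads, while no other peak of the stretch has more than 21.

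The peaks of the stretch held 40 to 272 ChIP reads each, and the median was 81 (interquartile range 61 to 107). The 4401 other peaks had a median of 75 (60 to 97), and the rest of chromosome 8 had 77 (62 to 94). The mean was 88.6 ChIP reads per peak (87.4 to 89.8) in the stretch against 83.4 (83.2 to 83.7) over the other peaks, a ratio of 1.06 (1.05 to 1.08). The upper quartile thus differed more than the lower one. On the strand with fewer reads, 98 of the 237 peaks (41.4%) had at least 20 reads in the caller's busiest window, against 36.9% of all 4638 peaks. The smallest such count in the list was 16, held by 19.0% of the stretch and 22.1% of all peaks, so 20 lies just above that floor.

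Input reads per peak differed by more than ChIP reads did. The stretch had a mean of 5.68 input reads per peak (5.38 to 5.99), a median of 5 and an interquartile range of 3 to 7. The other peaks had a mean of 4.31 (4.25 to 4.37), a median of 4 and an interquartile range of 2 to 6. The ratio was 1.32 (1.25 to 1.39) against all other peaks and 1.27 (1.17 to 1.37) against the rest of chromosome 8. Only 4 peaks of the stretch (1.69%) had no input read, against 5.22% of all peaks. At the other end, 32 peaks (13.5%) had 10 or more input reads, against 6.94% of all peaks.

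Input was also compared at like ChIP counts. All peaks were split into 4 classes of similar size by ChIP reads. In the lowest class (35 to 60 reads), the 57 peaks of the stretch had 3.60 input reads per peak (3.12 to 4.12) and the 1169 other peaks had 2.78 (2.69 to 2.88). In the next class (61 to 75 reads) the values were 4.27 (3.71 to 4.88) and 3.66 (3.55 to 3.78), and these intervals overlap. In the third class (76 to 97 reads) they were 5.65 (5.08 to 6.27) and 4.46 (4.33 to 4.59). In the highest class (98 to 409 reads) they were 8.47 (7.79 to 9.19) and 6.46 (6.31 to 6.62), and the stretch still had 7.75 (7.09 to 8.44) without its peak of 57 input reads. Against the rest of chromosome 8 the lower classes were closer. There the input reads per peak were 3.48 (3.02 to 3.98) in the lowest class and 3.98 (3.51 to 4.51) in the next, and both intervals overlap those of the stretch. In the third and highest classes they were 4.42 (3.97 to 4.90) and 6.16 (5.53 to 6.83), below the intervals of the stretch. Across the 237 peaks, ChIP and input reads had a Spearman rho of 0.47, and across the 4401 other peaks 0.44. Both counts of a peak come from the same region, so these are descriptions without a test.

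**Figure D2:**
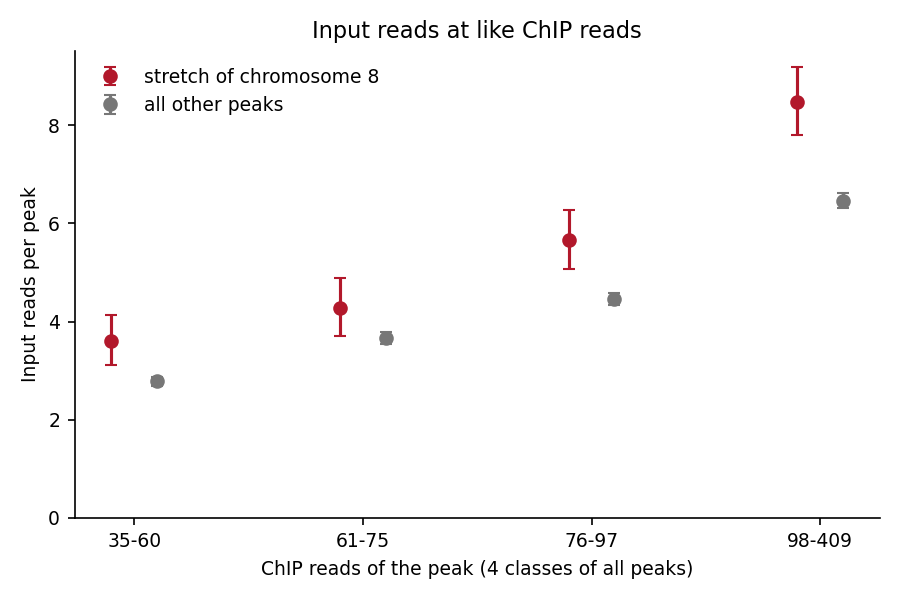
Mean input reads per peak (vertical axis) in 4 classes of ChIP reads (horizontal axis), for the 120 to 130 Mb stretch in red and all other peaks in grey, with 95% Poisson intervals of the summed reads. The stretch lies above the other peaks in each class, at 8.47 against 6.46 in the highest, and the intervals overlap in the second class.

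Among the 22 stretches of 10 Mb with at least 50 peaks, this one had the third highest input reads per peak and the tenth highest ChIP reads per peak. The stretches with more input lay on chromosome 15, at 90 to 100 Mb (5.89 input reads per peak, 5.34 to 6.48) and at 80 to 90 Mb (5.86, 5.50 to 6.23), and these intervals overlap that of the stretch. They also held more ChIP reads per peak (99.7 and 96.3). The most similar stretches by number of peaks were 130 to 140 Mb of chromosome 4 with 240 peaks and 70 to 80 Mb of chromosome 15 with 221. Input reads per peak were 1.23 times (1.13 to 1.33) those of the chromosome 4 stretch and 1.07 times (0.985 to 1.15) those of the chromosome 15 stretch. The pooled fold was 0.838 times (0.772 to 0.911) and 0.872 times (0.804 to 0.946) theirs.

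**Figure D3:**
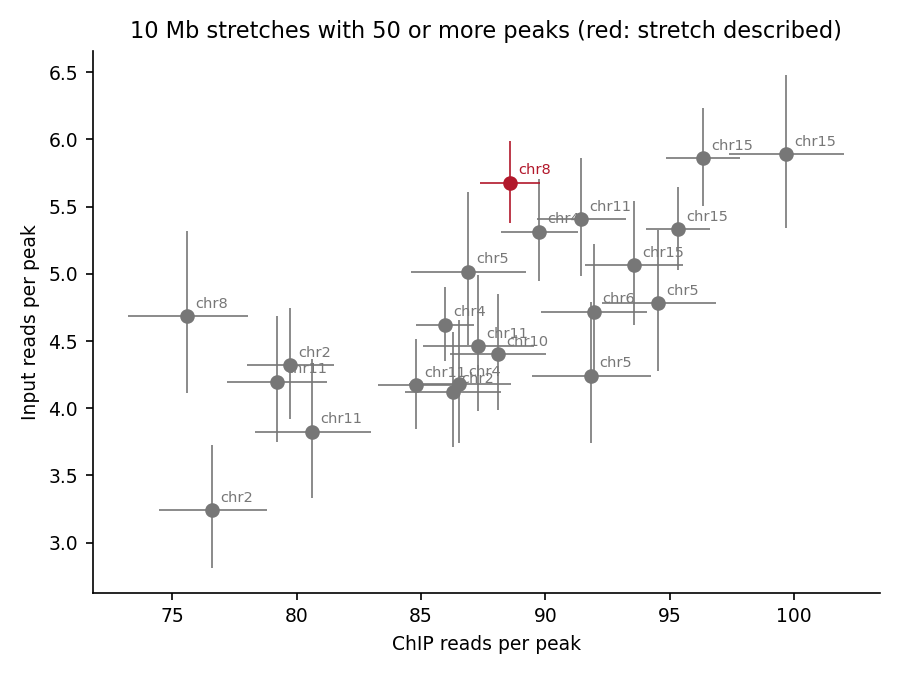
Mean input reads per peak (vertical axis) against mean ChIP reads per peak (horizontal axis) for the 22 stretches of 10 Mb with at least 50 peaks, labelled by chromosome, with 95% Poisson intervals of the summed reads. The stretch of chromosome 8 at 120 to 130 Mb, in red, has 5.68 input reads at 88.6 ChIP reads per peak, and the points with more input are on chromosome 15 and hold more ChIP reads.

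The contrast was larger with the part of chromosome 8 just before the stretch. The 24 peaks at 110 to 120 Mb had 73.5 ChIP reads (70.1 to 77.0) and 2.79 input reads per peak (2.16 to 3.55), a pooled fold of 37.8 (29.6 to 49.0). Input reads per peak in the 120 to 130 Mb stretch were 2.03 times as many (1.59 to 2.64), ChIP reads were 1.21 times as many (1.15 to 1.27), and the pooled fold was 0.592 times as large (0.454 to 0.761). Elsewhere on the chromosome, the 37 peaks at 20 to 30 Mb had 5.95 input reads per peak (5.19 to 6.79) and the 13 peaks at 30 to 40 Mb had 6.92 (5.57 to 8.51). High input per peak was therefore not confined to the 120 to 130 Mb stretch. Beyond 130 Mb, 3 peaks were listed, the last ending at 131075916.

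At the borders of the stretch, the last peak outside was at 119994261 to 119994340 (69 ChIP and 6 input reads) and the first inside at 120061625 to 120061692 (56 and 2). The last peak inside was at 129587699 to 129587757 (48 and 2) and the next outside at 130040026 to 130040064 (81 and 8). The first peak inside lay within 100 kb of the last one outside. A gap of 1879 kb, the longest in the stretch, separated it from the next peak at 121940250 to 121940368, which had 160 ChIP and 6 input reads. The next longest gaps were 582 kb, between the peaks at 128241188 to 128241248 (40 and 4 reads) and 128823240 to 128823645 (92 and 3), and 356 kb, between those at 125414260 to 125414707 (112 and 3) and 125770806 to 125770888 (99 and 3).

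Within the stretch, 185 of the 237 peaks (78.1%) lay between 122 and 126 Mb. The bin from 122 to 123 Mb had 63 peaks, and the bins that followed had 44, 46 and 32. Each of the other 6 bins of 1 Mb had 1 to 16 peaks. Input reads per peak were 6.44 (5.83 to 7.10) at 122 to 123 Mb and 4.25 (3.66 to 4.90) in the next bin, a ratio of 1.52 (1.27 to 1.81). The corresponding pooled folds were 21.0 (19.0 to 23.3) and 29.0 (25.0 to 33.7). At 124 to 125 Mb the values were 5.37 input reads (4.72 to 6.08) and a fold of 25.9 (22.7 to 29.5). At 125 to 126 Mb they were 7.28 input reads (6.38 to 8.28) and a fold of 16.5 (14.4 to 19.0), and without the single peak of 57 input reads they were 5.68 (4.87 to 6.58) and 20.2 (17.3 to 23.7). Input per peak and fold therefore varied along the stretch, and the bin at 123 to 124 Mb had about the mean input of the other 4401 peaks. The 16 peaks at 129 to 130 Mb had 5.94 input reads per peak (4.80 to 7.26) and a fold of 18.8 (15.2 to 23.4).

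**Figure D4:**
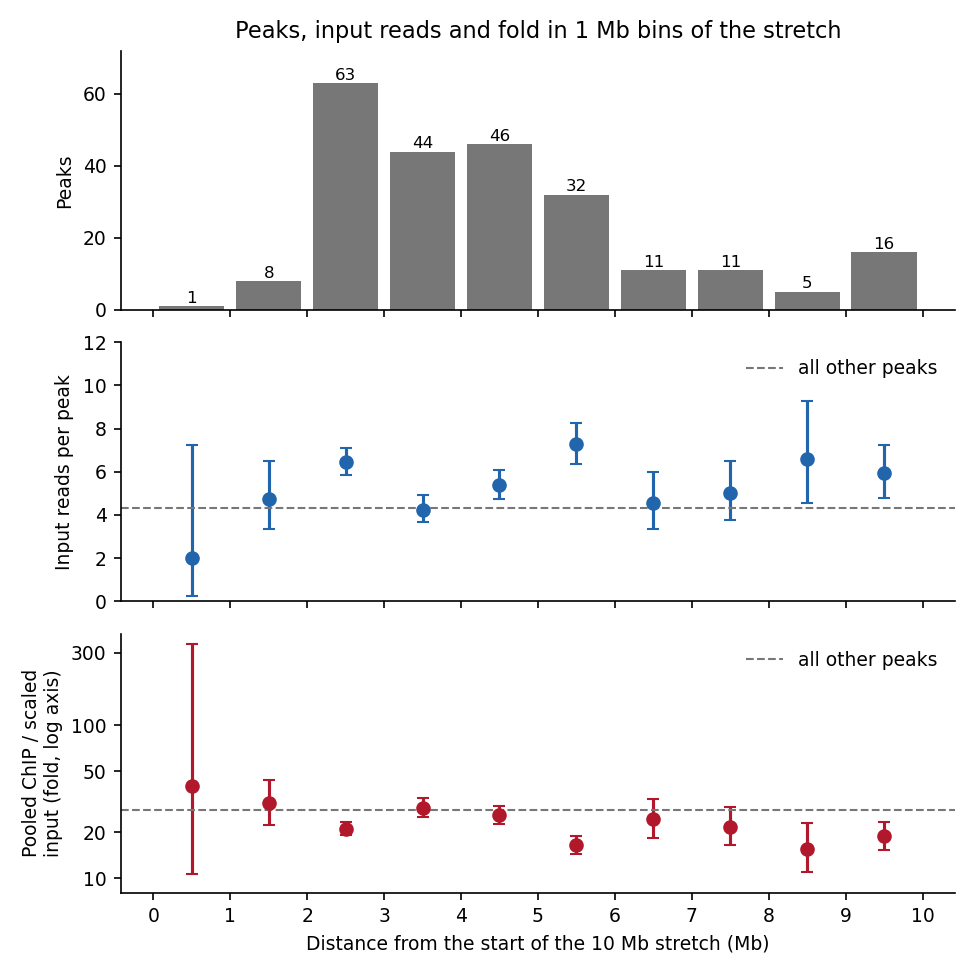
Number of peaks (upper panel), mean input reads per peak (middle) and pooled fold over scaled input (lower, log axis) in 10 bins of 1 Mb, against the distance in Mb from the 120 Mb position, with 95% intervals for counting error and the value of the 4401 other peaks dashed. Peaks are most numerous in the third bin (63), where input reads per peak (6.44) lie above the dashed line and the fold (21.0) below it.

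Joined at gaps of at most 100 kb, the 237 peaks formed 20 domains, of which 4 were single peaks and 5 held 10 or more. Peaks outside the stretch were left out of the joining, and the first of the 4 single peaks would otherwise join its neighbour before 120 Mb. The 2 largest took in 141 peaks (59.5%) and 62.4% of the ChIP reads of the stretch, while they covered 20.6% of its length. The proximal one ran from 122314451 to 123158711 (844 kb) with 72 peaks, or 85.3 peaks per Mb. The distal one ran from 124197209 to 125414707 (1217 kb) with 69 peaks, or 56.7 per Mb. Only 5 domains of the whole list held 50 peaks or more. Among them the proximal domain had the most peaks per Mb and the distal one the fewest. Both were close to the next in order, at 84.2 per Mb on chromosome 15 and 58.0 per Mb on chromosome 4. With gaps of 50 kb the 2 largest domains held 35.4% of the peaks and with 200 kb 86.1%, so their size rests on the joining distance.

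The proximal domain held 6853 ChIP and 441 input reads, a pooled fold of 22.3 (20.3 to 24.6), with 95.2 ChIP (92.9 to 97.5) and 6.13 input reads per peak (5.57 to 6.72). Each of its peaks had at least 1 input read. The distal domain held 6241 and 387 reads, a fold of 23.2 (20.9 to 25.7), with 90.4 ChIP (88.2 to 92.7) and 5.61 input reads per peak (5.06 to 6.20). Neither the fold of the proximal domain relative to the distal (0.964, 0.835 to 1.11) nor its input per peak (1.09, 0.951 to 1.26) differed beyond counting error. The 96 peaks outside both domains had 82.3 ChIP (80.5 to 84.1) and 5.40 input reads per peak (4.94 to 5.88), and a fold of 21.9 (20.04 to 24.0). The domains together exceeded them in ChIP reads per peak by a ratio of 1.13 (1.10 to 1.16), while for input per peak (1.09, 0.974 to 1.22) and fold (1.04, 0.924 to 1.16) the intervals included equality. The 96 peaks include the one with 57 input reads. Without it they had 4.85 input reads per peak (4.42 to 5.32) and a fold of 24.0 (21.8 to 26.4), and the ratio of input per peak became 1.21 (1.08 to 1.36), which leaves out equality, while that of the fold was 0.948 (0.841 to 1.07). Inside and outside the domains, with or without that peak, the fold was below the 27.8 of the other 4401 peaks.

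The other domains were smaller. A domain of 15 peaks from 121940250 to 122189939 had a fold of 23.4 (18.9 to 29.4), and another of 23 peaks from 123688168 to 124068859 had 28.3 (23.2 to 34.8). Between the proximal domain and that of 23 peaks, 9 peaks from 123274641 to 123579804 had 69.1 ChIP and 2.33 input reads per peak, with a fold of 42.6 (27.6 to 69.2). This was the domain with the highest fold among those of 9 or more peaks, and its lower limit lay above the upper limit of both large domains. A domain of 10 peaks near the end, from 129300611 to 129587757, had 6.80 input reads per peak and a fold of 18.4 (14.3 to 23.9).

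The peaks of the stretch also stood close to their nearest neighbours. Between midpoints, 158 peaks (66.7%) had another peak within 10 kb, against 41.1% of all peaks and 33.8% on the rest of chromosome 8. The share was 73.9% in the distal domain and 88.9% in the proximal one, and 44.8% outside both. The median distance to the nearest peak was 5567 bp (interquartile range 2266 to 15048) in the stretch and 16337 bp (4000 to 59749) over the other peaks. Within 1 kb the shares were 11.0% and 8.66%, so the stretch differed far less at that distance. The stretches of like peak number had similar shares within 10 kb, with 59.2% at 130 to 140 Mb of chromosome 4 and 65.6% at 70 to 80 Mb of chromosome 15. Close spacing goes with a high number of peaks per Mb, and the part of the one in the other was not tested.

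**Figure D5:**
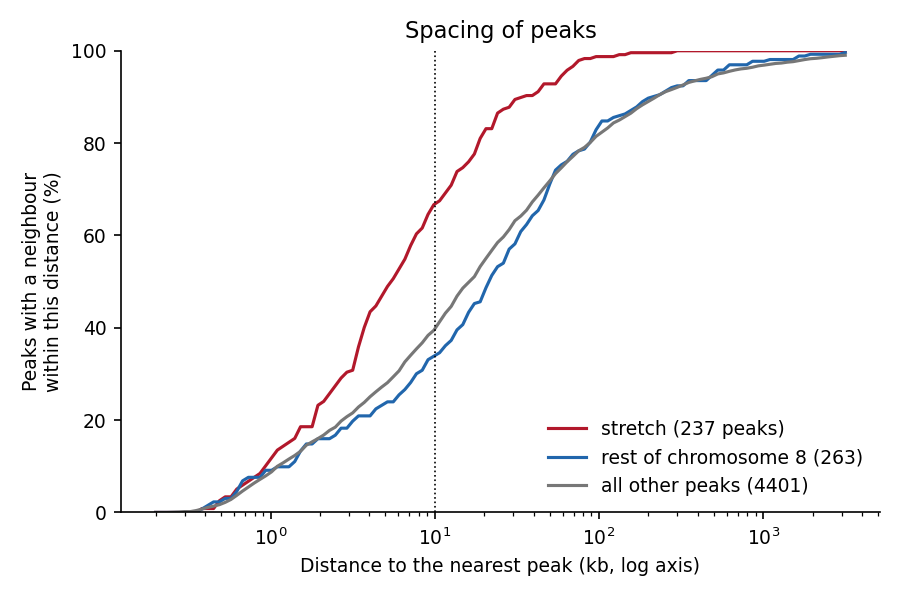
Share of peaks (vertical axis, %) with another peak within the distance on the horizontal axis (kb, log axis), for the 120 to 130 Mb stretch, the rest of chromosome 8 and all other peaks, with 10 kb dotted. At 10 kb the stretch reaches 66.7%, the rest of chromosome 8 33.8% and all other peaks 39.7%, while the curves lie close together at 1 kb.

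Chained at gaps of at most 10 kb, the 237 peaks gave 126 separate regions, of which 79 were single peaks and 47 were runs of 2 or more peaks. These runs took in 158 peaks (66.7%), against 41.4% of all peaks. Runs of 5 or more took in 74 peaks (31.2%), against 7.81% of all peaks. The stretch held 12 of the 57 runs of this size in the list, and the rest of chromosome 8 held 0. Of the 12 runs, 8 followed each other in the proximal domain between 122773391 and 123090665. All 51 peaks of that 317 kb belonged to these 8 runs, which makes 161 peaks per Mb and 21.5% of the stretch's peaks. They had 104 ChIP (102 to 107) and 6.84 input reads per peak (6.14 to 7.60), and a fold of 21.9 (19.7 to 24.5).

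The 8 runs differed among themselves. The first, at 122773391 to 122800096, had 7 peaks with 59 to 272 ChIP reads and a fold of 24.5 (18.7 to 32.8). The second, at 122813910 to 122828354, had 5 peaks, 8.60 input reads per peak and a fold of 14.1 (10.3 to 19.8), the lowest of the 12 runs. The next were at 122855081 to 122872179 with 5 peaks (17.6-fold, 12.2 to 26.0) and at 122885734 to 122907817 with 6 (20.5-fold, 15.2 to 28.2). The pair of runs with most peaks, 8 each, lay at 122931833 to 122957075 (26.0-fold, 19.6 to 35.1) and at 123009092 to 123023144 (25.2-fold, 18.8 to 34.5). Between them a run of 7 peaks at 122969198 to 122995486 had a fold of 18.8 (13.9 to 25.8). The last, at 123071572 to 123090665, had 5 peaks and a fold of 29.0 (19.6 to 44.8). All 8 intervals overlap one another, so the order of these runs is not resolved at this depth.

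The other 4 runs of 5 or more peaks lay in the distal domain. That at 124280716 to 124313967 had 6 peaks, 3.83 input reads per peak and a fold of 32.6 (21.5 to 51.9), the highest of the 12. The run at 124774311 to 124794972 had 7 peaks and a fold of 29.3 (20.5 to 43.2). The run at 124829259 to 124852316 had 5 peaks with 10.2 input reads per peak, the most of the 12, and a fold of 19.7 (14.8 to 26.7). The run at 125222402 to 125245138 had 5 peaks and a fold of 16.4 (11.9 to 23.2).

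ChIP reads per peak followed the size of the run. Peaks alone at 10 kb had 77.7 ChIP reads (75.8 to 79.7), those in runs of 2 to 4 had 85.6 (83.6 to 87.6) and those in runs of 5 or more had 104 (101 to 106). The same classes over the 4401 other peaks had 78.8, 88.0 and 102 ChIP reads per peak, so at equal run size the means were close to those of the stretch. Input reads per peak were higher in the stretch than over those 4401 peaks in each class of run size. They were 5.33 (4.83 to 5.86) against 4.02 (3.95 to 4.10) for peaks alone, 5.11 (4.64 to 5.61) against 4.49 (4.39 to 4.60) in runs of 2 to 4 and 6.70 (6.13 to 7.32) against 6.02 (5.74 to 6.31) in runs of 5 or more, where the intervals overlap. The peak with 57 input reads is among the peaks alone, which without it had 4.67 input reads per peak (4.20 to 5.17), below rather than above those in runs of 2 to 4, and a fold of 23.4 (21.0 to 26.1). With it the pooled fold was 20.9 (19.0 to 23.2) against 28.1 (27.6 to 28.7) for peaks alone and 24.1 (21.8 to 26.6) against 28.1 (27.4 to 28.8) in runs of 2 to 4. In runs of 5 or more it was 22.2 (20.3 to 24.4) against 24.4 (23.3 to 25.6), with overlapping intervals. On the rest of chromosome 8, input reads per peak were 4.53 (4.22 to 4.86) for peaks alone and 4.38 (3.96 to 4.84) in runs of 2 to 4. Both intervals overlap those of the stretch. The folds there were 25.1 (23.3 to 27.0) and 29.8 (26.9 to 33.0). For peaks alone the fold intervals overlap only without the peak of 57 input reads, and in runs of 2 to 4 they do not overlap.

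Single peaks spanned a wide range of enrichment. A lower limit of the fold above 10 was reached by 117 of the 237 peaks (49.4%), against 58.3% of all peaks and 54.4% on the rest of chromosome 8. Without scaling of the input, 44 peaks (18.6%) reached it, against 27.1% of the other peaks. The fold of the 233 peaks with input reads had a median of 24.7 (interquartile range 16.5 to 36.9), against 29.2 (19.5 to 46.0) for the other peaks. It was under 10 in 6 peaks (2.53%), against 1.7% of all peaks. The largest window fold per peak in the authors' table had a log2 median of 4.95 both in the stretch and over the other peaks. It ran from 3.09 to 6.02 in the stretch. Only 738 peaks of the whole list had a deposited fold other than that of a window without input. For most peaks of the list this fold therefore reflects ChIP reads alone. The equal medians do not show equal enrichment over input. By the authors' ranks, which order the list and are a description, 26 peaks of the stretch (11.0%) had a rank of at most 500, against 10.7% of all peaks. The last 500 ranks held 39 of them (16.5%), against 10.2% of all peaks.

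The best ranked peak of the stretch, with rank 19, was at 124255017 to 124255048 in the distal domain and had 104 ChIP and 3 input reads, a 49.8-fold excess (16.6 to 245). Rank 32 went to the peak at 121940250 to 121940368 that follows the longest gap (160 and 6 reads, 38.3-fold, 17.2 to 106). Rank 35, at 122931833 to 122932393 (561 bp), opened a run of 8 peaks with 166 and 10 reads. Rank 39, at 123022306 to 123022341, lay in the other run of 8, next to its last peak, and had 140 and 5 reads. Rank 63, at 124294859 to 124294946, had 155 and 3 reads, a 74.2-fold excess (24.9 to 364). Reads on both strands are shared by every peak of the list, since the busiest window of the weaker strand never held fewer than 16. Among these 5 the least even was rank 39, with 53 forward and 87 reverse ChIP reads.

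The peak with most ChIP reads of the stretch was at 122799954 to 122800096, where 272 ChIP reads faced 18 input reads (21.7-fold, 13.5 to 37.2). It ended the first of the 8 runs of the proximal domain and had rank 2086. In the distal domain, the peak at 124808679 to 124808735 had 271 and 15 reads (26.0-fold, 15.5 to 47.0) and rank 80. The site at 124846335 to 124847074, 740 bp long, had 240 and 21 (16.4-fold, 10.5 to 27.0), and the peak at 125070599 to 125070652 had 212 and 20 (15.2-fold, 9.61 to 25.4). Of the 5 peaks with most ChIP reads, 4 were also among the 5 with most input reads. The other one with most input reads was 850 bp long, at 129350260 to 129351109, where 182 ChIP reads met 21 input reads (12.5-fold, 7.91 to 20.6).

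The peak at 125955660 to 125955838 stood apart. It had 207 ChIP reads, the fifth highest count of the stretch, and 57 input reads, the most of all 4638 peaks, for a fold of 5.22 (3.87 to 7.12), the lowest of the stretch. Its input reads were split evenly, with 29 forward and 28 reverse, as were its ChIP reads with 103 and 104. The caller's busiest window held 87 ChIP and 22 input reads there. It lay outside both large domains. Without it, the pooled fold of the stretch was 23.2 (21.9 to 24.5) and input reads per peak were 5.46 (5.17 to 5.77), a ratio of 1.27 (1.20 to 1.34) to the other peaks. The next lowest folds were 7.33 (3.68 to 16.2) at 125190610 to 125190896, with 51 ChIP and 10 input reads, and 8.49 (4.45 to 17.8) at 122316345 to 122316448, with 65 and 11.

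The highest folds rested on 1 input read each and are bounded only loosely. They were 154-fold (27.0 to 6127) at 123953098 to 123953193 with 107 ChIP reads, 139-fold (24.4 to 5560) at 123807430 to 123807509 with 97 and 131-fold (22.9 to 5220) at 125004900 to 125004929 with 91. The 4 peaks without input reads were at 123357705 to 123357801 (45 ChIP reads), 124051641 to 124051702 (49), 126925332 to 126925419 (73) and 127678390 to 127678442 (61). None of these 4 lay in the large domains.

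In shape the peaks of the stretch were close to the rest of the list. Forward reads made up 49.7% of ChIP reads and 48.6% of input reads. From forward to reverse summit the median distance was 68 bp (quartiles 31 and 102), and it was 68 bp over the other peaks too. The median deposited length was 88 bp (52 to 135) against 83 bp (51 to 130). Length and summit distance were often the same value, as at 121940250 to 121940368 (119 bp), so they are not separate measures. A length of 200 bp or more was found in 35 peaks (14.8%), against 15.4% of all peaks. The reverse summit lay at or before the forward one in 31 peaks (13.1%), against 12.3% of all peaks.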

How the data were processed

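ChIP and input libraries (2 of each) of Neuro-2A cells were represented by 1 peak table with the column names of the caller CisGenome, per the file headers, on mm9, per the submitters' processing notes. The aligner, any filters and how replicates entered the table were not given in the sources used here. Its deposited values are read counts per peak region, by strand and in the busiest window, log2 folds with a pseudocount of 1, a false discovery rate per peak (a q-value), a strand balance as a fraction, and scores (rank, length, summit distance). Per the labels, libraries came from 10 ng of DNA and 18 PCR cycles. Reads may therefore not all be independent molecules, and whether duplicates were removed was not given.

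The input scale was the constant that matched whole-number window counts in 738 of 738 peaks whose deposited log2 fold was not that of a window without input. Folds have conditional Clopper-Pearson intervals, mean counts have Poisson intervals and ratios have exact conditional intervals (scipy 1.17.1, pandas 2.3.3, numpy 2.4.6). The fold intervals and the recovery of the input scale were tested on simulated counts. The intervals of mean counts and of ratios were not. Neighbours were measured between midpoints, and domains and runs between nearest edges. Peaks named are the 5 best ranked, the 5 with most ChIP and the 5 with most input reads, the 3 highest and 3 lowest folds, peaks at borders and at the 3 longest gaps, and runs of 5 or more. Peaks without input reads, the smaller domains and the 317 kb part were chosen after their values were seen. The members and all lists were chosen with earlier results of these data known. The gene and promoter tables used here are on another assembly, so peaks were assigned to no gene and no sequence was read.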

Additional observations from a re-analysis of the deposited data

How the results depend on the processing

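The share of chromosome 8 peaks in the stretch was 37.3% after merging within 10 kb and 46.8% to 51.3% under the 3 other alternatives. The pooled fold was 15.6 without input scaling, 18.4 in the busiest windows and 30.1 among peaks ranked at or before the median rank, where the other peaks had 21.4 (busiest windows) and 36.4 (better ranked). Input reads per peak were 4.71 among the better ranked (other peaks 3.73), 6.84 with 20 reads per strand (other peaks 5.07), 10.7 after merging within 10 kb and 5.21 without the 5 highest. ChIP reads per peak were 98.8, 112, 167 and 85.3 under the same 4 kinds of alternative, the last without the 5 peaks with most ChIP reads. A neighbour was found for 11.0% of peaks within 1 kb and 98.7% within 100 kb, against 8.78% and 82.5% of all peaks. Within 100 kb the share was also 98.75% at 130 to 140 Mb of chromosome 4 and 97.3% at 70 to 80 Mb of chromosome 15. Among the better ranked peaks of the stretch 45.8% had a neighbour within 10 kb, and the like share of the other peaks was not computed. The 2 largest domains held 35.4% at 50 kb, 86.1% at 200 kb, 37.3% among the better ranked and 37.8% with 20 reads per strand, where fewer peaks leave wider gaps. A lower fold limit above 5, above 20 and above 10 without scaling was reached by 226, 14 and 44 peaks, against 117. These were 95.4%, 5.91% and 18.6% of the stretch, where the other peaks had 97.8%, 9.09% and 27.1%. The omission of the 57-read peak from input per peak, from single peaks and from peaks outside the domains was chosen after seeing the data. No paired analysis was possible because each group has 1 deposited value per peak with no replicates separated, and no replicate could be left out for the same reason. With about 5 input reads per peak, folds of single peaks are resolved only coarsely.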

Other observations

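Neighbouring peaks of the stretch were hardly alike in reads. Over the 111 pairs of consecutive peaks at most 10 kb apart, Spearman's rho between the input reads of the pair was 0.12, and over the 125 pairs farther apart it was 0.076. For ChIP reads the values were 0.0084 and -0.037. Consecutive pairs share peaks, and a coefficient this small at 3 to 7 input reads per peak is given as a description.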
